A study of Mus musculus with 12 samples.

Results

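Glutathione transferases and metallothioneins were followed as 10 mouse genes: the cytosolic transferases Gstt1, Gstm1, Gstm2, Gsta4, Gstp1 and Gsto1, the membrane-bound transferases Mgst1 and Mgst3, and the metallothioneins Mt1 and Mt2. They were chosen by name from the 2 families after expression values of the same comparison had been seen, so their levels and fold changes are given as a description, without p-values. Of the 10, 9 were listed in all 6 libraries and Gstp1 was listed in none, among 13318 genes listed in any library. All 9 passed the filter of a mean of at least 1 FPKM (fragments per kilobase of transcript, scaled to library size), a mean taken over both groups.

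The RNA came from cumulus cells of Kunming mice, the somatic cells around the oocyte, which the labels also call granulosa cells of antral follicles. In 3 libraries the cells had received follicle-stimulating hormone (FSH) and fetal bovine serum (FBS) together over 18 hours, and the other 3 libraries are labelled as untreated, with no time in culture, so FSH, serum and time in culture cannot be told apart. The series studies cumulus expansion and apoptosis, and its design text also describes complexes with the oocyte removed, without saying which libraries held them. The labels give no age and no genetic change, and no source states whether each library had its own culture or animal, so any p-value here reflects variation among these libraries alone, possibly of technical origin. Libraries 1 and 2 of each group were much closer than any other pair: 2.82% and 4.54% of 9022 genes differed over 2-fold between them, against 15.9% to 22.9% for pairs with library 3. Their mean therefore entered as a single sample, which leaves n = 2 in each group. Summed over all genes, FPKM came to 390966 in FSH and FBS library 3 and to 264904 to 274530 in the other 5. Below, treated means given FSH and FBS, and values follow the order of libraries 1, 2 and 3.

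Glutathione transferases join the tripeptide glutathione to reactive, fat-soluble compounds, which can then be pumped out of the cell, and some also act as peroxidases or isomerases. The ovary is known for transferases of the alpha class, whose members can also isomerise steroid intermediates. Metallothioneins are small cysteine-rich proteins that bind zinc and copper. Their genes are classic targets of the zinc-sensing factor MTF1 and of glucocorticoids, whereas many transferase genes respond to the oxidative stress factor NRF2.

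Mt2 lay on chromosome 8 from 94172618 to 94173567 and Mt1 from 94179089 to 94180325, both on the plus strand and 5.52 kb apart. On chromosome 3, minus strand, Gstm2 ran from 107981702 to 107986453 and Gstm1 from 108012255 to 108017973. Gstt1 lay on chromosome 10 from 75783813 to 75798584 on the minus strand, 2.86 kb from its family member Gstt3. Gsto1 lay on chromosome 19 from 47854970 to 47864790 (plus), Mgst1 on chromosome 6 from 138140316 to 138156755 (plus) and Mgst3 on chromosome 1 from 167371966 to 167393841 (minus). For Gsta4 a single exon was listed, on chromosome 9 from 78209057 to 78209348 (plus). Coordinates here are those of the deposited tables, whose genome build is not given in the sources used here. Of 12768 genes compared, 98.98% overlapped their RefSeq position in GRCm38.p6, and the first exons of Mt1, Mt2, Gstm1 and Mgst3 began at the RefSeq start to the base.

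The 250 bases before the RefSeq start (GRCm38.p6) are shown for both metallothionein members, whose treated libraries all lay above the untreated ones, and for both mu-class members, whose treated libraries all lay below them. Capitals mark matches, on either strand, to 5 motifs. They are the cores TGCACNC and TGCGCNC of the metal response element that MTF1 binds, and the antioxidant response element core TGACNNNGC. The others are TGANTCAGC, a related motif bound by NRF2 with small MAF partners, and the cAMP response element TGACGTCA. A match to TGANTCAGC need not match TGACNNNGC. Sequences run 5′ to 3′ on the gene's strand: Mt2 is at chr8:94172368-94172617 (plus), Mt1 at chr8:94178839-94179088 (plus), Gstm1 at chr3:108017974-108018223 (minus) and Gstm2 at chr3:107986421-107986670 (minus).
Mt2: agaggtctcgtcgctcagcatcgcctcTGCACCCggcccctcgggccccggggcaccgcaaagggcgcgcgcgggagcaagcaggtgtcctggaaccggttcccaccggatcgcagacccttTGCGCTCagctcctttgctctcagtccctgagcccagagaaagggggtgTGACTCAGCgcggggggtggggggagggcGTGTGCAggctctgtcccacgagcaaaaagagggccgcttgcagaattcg
Mt1: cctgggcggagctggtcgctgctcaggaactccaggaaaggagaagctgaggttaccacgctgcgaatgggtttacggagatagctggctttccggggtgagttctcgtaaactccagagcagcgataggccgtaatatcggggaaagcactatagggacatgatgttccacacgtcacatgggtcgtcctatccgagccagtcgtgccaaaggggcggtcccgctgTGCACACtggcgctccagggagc
Gstm1: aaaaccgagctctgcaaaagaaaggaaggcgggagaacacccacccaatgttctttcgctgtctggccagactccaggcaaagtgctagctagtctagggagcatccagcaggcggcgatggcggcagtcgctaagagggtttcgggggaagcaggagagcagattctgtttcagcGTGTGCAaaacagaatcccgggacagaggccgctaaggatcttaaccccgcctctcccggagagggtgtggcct
Gstm2: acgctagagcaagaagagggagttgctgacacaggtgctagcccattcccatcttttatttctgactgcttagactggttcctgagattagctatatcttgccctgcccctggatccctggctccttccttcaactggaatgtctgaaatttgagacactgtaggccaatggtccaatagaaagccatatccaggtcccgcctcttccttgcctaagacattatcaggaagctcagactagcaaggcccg

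The Mt2 window held 3 metal response element cores and 1 match, TGACTCAGC, that fits both NRF2 motifs and so counts under each. The Mt1 window held 1 metal response element core, Gstm1 held 1 and Gstm2 none. Of 32817 RefSeq promoters searched over the same 250 bases, 21.4% held at least 1 such core and 1.26% at least 3. TGACNNNGC was found in 10.2% of them, TGANTCAGC in 1.02% and TGACGTCA in 1.55%. None of the members' windows held TGACGTCA. Among the windows not shown, those of Gsto1 and Mgst3 held no match to any motif. That of Gstt1 held 1 match to TGCGCNC, and 1 Mgst1 window held 1 match to TGACNNNGC. For that Mgst1 window the RefSeq start lay 211 bases downstream of the start of the main first exon. RefSeq promoters were found for 9 of the 10 members. Gsta4 was not among them. For Gstt1 the RefSeq start lay 853 bases downstream of the first exon that carried nearly all of its FPKM, so its window is not shown. For Gstm2 it lay 33 bases downstream, so the end of that window falls within the listed exon. These matches are letters in a window and no measure of binding. Bases after the RefSeq start, inside the listed first exons, were not searched. The counts of 1 metal response element core for Mt1 and 3 for Mt2 therefore hold for these windows only.

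Among the members, Mt2 was the 1 gene past the threshold upward and Gstt1 and Gstm1 were the 2 past it downward in cells given FSH and FBS, whereas Gsta4, Mgst1 and Mgst3 lay near the middle of all genes. The fit across all 9022 genes (limma, adjusted p under 0.05) called 1.68% of all genes higher and 0.687% lower, 2.37% in all. Since the members were picked with this comparison known, nothing is read from their 3 calls of 9. The 3 libraries of the groups did not overlap for 6 of the 9 members, against 38.9% of all genes. The members' median log2 fold change was 0.185 and that of all genes 0.242, and rescaling by median of ratios took the latter to 0.0037. In RNA from whole cell samples, fewer cells of a type and less RNA per cell cannot be told apart. With the replicate number as a block, 3 members were past the threshold upward (Mt1, Mt2 and Gsto1) and 3 downward (Gstt1, Gstm1 and Gstm2). That fit called 11.5% of all genes higher and 4.51% lower and has 1 residual degree of freedom.

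**Figure D1:**
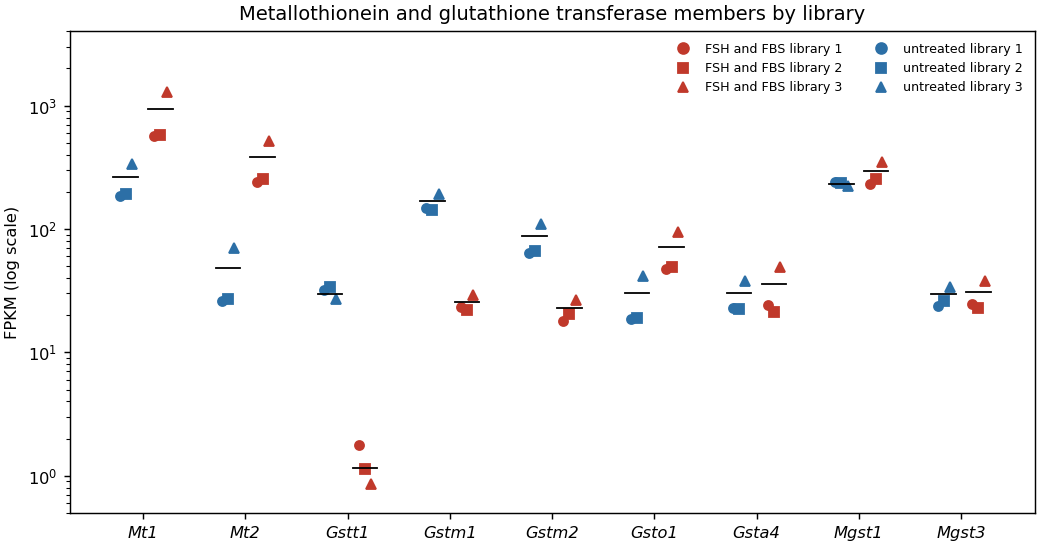
FPKM (log scale) of the 9 listed members in each library, untreated in blue and FSH and FBS in red, with the mean over the 2 samples of a group as a line. Mt1, Mt2 and Gsto1 are higher in every FSH and FBS library than in any untreated library, Gstt1, Gstm1 and Gstm2 lower, and Gsta4, Mgst1 and Mgst3 overlap. The directions of Gsta4 and Mgst3 turn under rescaling, and that of Mgst1 turns after quantile normalization alone.

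Mt1 was the member with the highest mean level in both groups, although Mgst1 lay above it in untreated libraries 1 and 2. It was at 563, 573 and 1299.55 FPKM in treated cells and at 186, 193 and 336 FPKM in the untreated ones. All 3 treated libraries lay above all untreated ones, and library 3 was the highest of its group in both. The means were 934 ± 517 and 263 ± 104 FPKM (SD, n = 2), a log2 fold change of 1.76 (SE 0.59) on the scale of log2(FPKM + 1), and Mt1 was not past the threshold. Without FSH and FBS library 3 the log2 fold change was 1.17.

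Mt2, which encodes the partner isoform, was at 239, 255 and 512 FPKM in treated cells and at 26.0, 27.1 and 69.9 FPKM in untreated cells. The groups were far apart, and library 3 was again the highest in each. The means were 380 ± 187 and 48.2 ± 30.7 FPKM (SD, n = 2), and the log2 fold change of 3.01 (SE 0.57) was larger than that of 99.5% of all genes. Mt2 did not pass without untreated library 3, where the log2 fold change was 3.70, nor under any of 3 rescalings of the libraries, where it was 2.62 to 2.74. It also did not pass where unlisted genes were set to 0 or with first-exon sums alone, although its own fold change was the same in those fits.

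Of the 2 metallothioneins, Mt2 passed the threshold and Mt1 did not. The Mt2 level was 0.425, 0.444 and 0.394 of the Mt1 level in the treated libraries and 0.140, 0.141 and 0.208 of it in the untreated ones. This ratio is taken within a library, so multiplying a library by a single factor does not change it, and the groups did not overlap. Together the genes held 0.292%, 0.303% and 0.463% of all summed gene FPKM in treated cells and 0.0799%, 0.0830% and 0.151% in untreated cells. Mt1 ranked 37 to 45 by FPKM among the genes listed in treated cells, against 108 to 191 in untreated cells. Mt2 went from rank 534 to 1872 in untreated cells to rank 112 to 138.

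Gstt1, the theta-class transferase that acts on small halogenated compounds, stood lowest of the members by fold change. It was at 1.79, 1.13 and 0.856 FPKM in treated cells and at 32.1, 33.6 and 27.1 FPKM in untreated cells. Every treated library was far below every untreated one, and here library 3 was the lowest of its group in both. The means were 1.16 ± 0.43 and 29.97 ± 4.11 FPKM (SD, n = 2), a 25.9-fold difference of means. The log2 fold change was -3.85 (SE 0.37) with the pseudocount of 1 and -2.502 with a pseudocount of 5. Over the 19 alternative fits run, the log2 fold change of Gstt1 ranged from -4.615 to -2.502. Its neighbour Gstt3, named like Gstt2 after its values were seen, was at 19.5, 21.8 and 38.5 FPKM against 10.5, 11.9 and 17.7 (limma adjusted p = 0.32, not passing). The ratio of Gstt1 to Gstt3 within a library was 3.05, 2.82 and 1.53 in untreated cells and 0.0917, 0.0518 and 0.0223 in treated cells. Gstt2, the third theta-class gene listed, was at 9.47, 8.96 and 14.8 FPKM against 13.5, 15.6 and 25.0.

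Gstm1, a mu-class transferase, was at 23.3, 22.1 and 28.9 FPKM in treated cells and at 149, 144 and 191 FPKM in untreated cells. The groups did not overlap and the spread within each was small beside the gap. The means were 25.8 ± 4.41 and 168 ± 31.4 FPKM (SD, n = 2), with a log2 fold change of -2.66 (SE 0.37). Gstm1 did not pass without untreated library 3, where its log2 fold change was -2.47.

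Gstm2, a mu-class gene 25.8 kb away, was at 18.1, 20.6 and 26.4 FPKM in treated cells and at 64.4, 66.5 and 111 FPKM in untreated cells. Again no treated library reached an untreated one. The means were 22.9 ± 5.004 and 88.1 ± 32.0 FPKM (SD, n = 2), with a log2 fold change of -1.87 (SE 0.40), which was not past the threshold. Over the 19 alternative fits the log2 fold change of Gstm2 ranged from -2.206 to -1.492. Gstm2 passed in 8 of them, among them both with the replicate block and those scaled to equal sums or quantiles. Since its values were known when it was chosen, nothing is read from these passes. Gstm1 stood at 2.31, 2.16 and 1.72 times Gstm2 in untreated cells and at 1.28, 1.08 and 1.10 times in treated cells, so the ratio was lower in every treated library than in any untreated one. Mu-class genes resemble each other in sequence, and how the authors' counting shared reads between them is not given in the sources used here.

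**Figure D2:**
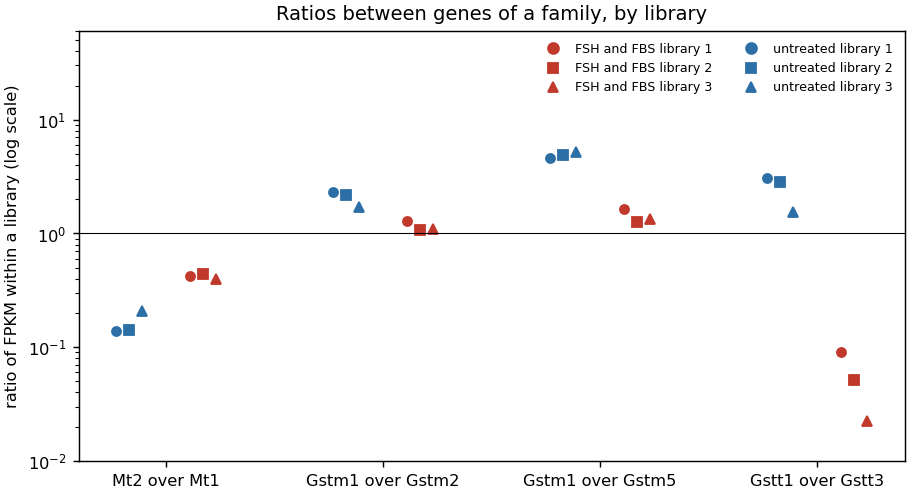
Ratios of FPKM between genes of the same family within a library (log scale), untreated in blue and FSH and FBS in red. Mt2 over Mt1 is higher in all 3 FSH and FBS libraries, and Gstm1 over Gstm2, Gstm1 over Gstm5 and Gstt1 over Gstt3 are lower in all 3.

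Gsto1, the omega-class thioltransferase that also reduces dehydroascorbate, was at 47.1, 49.2 and 94.5 FPKM in treated cells and at 18.8, 19.1 and 42.0 FPKM in untreated cells. The lowest treated library lay just above the highest untreated one; library 3 was the highest of each group. The means were 71.3 ± 32.7 and 30.5 ± 16.3 FPKM (SD, n = 2), with a log2 fold change of 1.23 (SE 0.50), not past the threshold. It was 0.75 without FSH and FBS library 3 and 1.78 without the untreated one.

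Gsta4, the alpha-class enzyme that clears 4-hydroxynonenal from lipid peroxidation, was at 24.1, 21.2 and 49.1 FPKM against 23.0, 22.4 and 37.7 FPKM in untreated cells. The libraries overlapped, and library 3 stood above the rest of its group in both. Its tables held a last exon and no first exon, so its value rests on last-exon FPKM alone. The log2 fold change was 0.18 (SE 0.46) and turned to between -0.08 and -0.20 under the 3 rescalings and -0.36 without treated library 3.

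Mgst1, a membrane-bound transferase and peroxidase of the endoplasmic reticulum and mitochondria, was the transferase member with the highest level in both groups. It was at 231, 253 and 349 FPKM in treated cells and at 239, 234 and 224 FPKM in untreated cells. The groups overlapped, and treated library 3 alone stood out. The log2 fold change was 0.34 (SE 0.44), and -0.05 after quantile normalization. Mgst3, a relative that also makes leukotriene C4, was at 24.6, 23.1 and 38.2 FPKM against 24.0, 26.1 and 34.1 FPKM. Its log2 fold change was 0.05 (SE 0.39) and lay between -0.22 and -0.32 under the 3 rescalings, and at -0.28 without treated library 3.

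In untreated cells the order by mean FPKM, a level per length, was Mt1, Mgst1, Gstm1, Gstm2, Mt2, Gsto1, Gsta4, Gstt1 and Mgst3. By their ranges across libraries, Mt1 and Mgst1 overlapped there, as did each neighbouring pair from Gstm2 downward. Mgst1 and Gstm1, and Gstm1 and Gstm2, did not. Within every untreated library, Gstm2 still lay above Mt2 and Mt2 above Gsto1. After FSH and FBS the order was Mt1, Mt2, Mgst1, Gsto1, Gsta4, Mgst3, Gstm1, Gstm2 and Gstt1. The ranges across treated libraries then did not overlap for Mt1 and Mt2, Mgst1 and Gsto1, or Gstm2 and Gstt1, and those of the other neighbours did. Within every treated library, Mt2 still lay above Mgst1, Gsto1 above Gsta4, Mgst3 above Gstm1 and Gstm1 above Gstm2. Only Gsta4 and Mgst3 changed order between treated libraries.

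The 7 listed transferase members summed to 370, 391 and 587 FPKM in treated cells and to 550, 545 and 666 FPKM in untreated cells, which overlap. Their makeup differed more than their sum. Gstm1, Gstm2 and Gstt1 together held 11.7%, 11.2% and 9.57% of that sum in treated cells and 44.6%, 44.7% and 49.3% in untreated cells. Mgst1 held 62.4%, 64.8% and 59.5% against 43.4%, 42.9% and 33.6%. These shares restate the levels above and are given without a test.

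**Figure D3:**
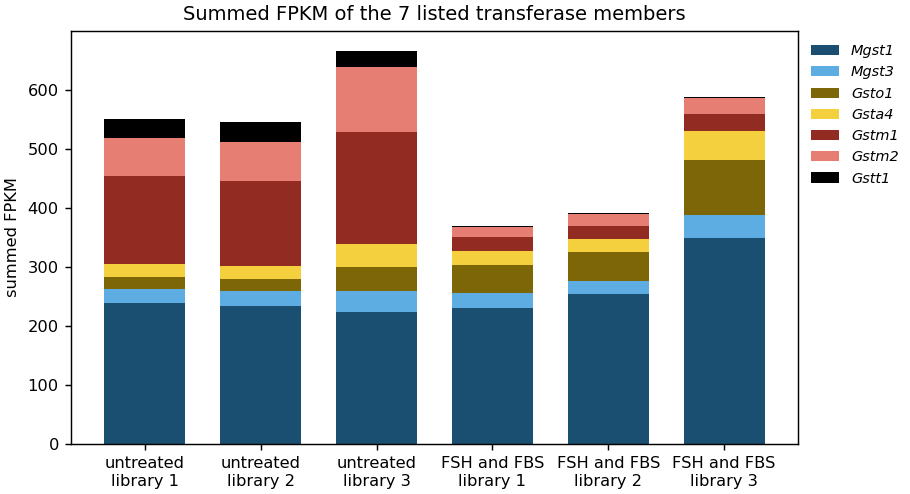
Summed FPKM of the 7 listed transferase members in each library, stacked by gene. Gstm1, Gstm2 and Gstt1 make up 44.6% to 49.3% of the sum in the untreated libraries and 9.57% to 11.7% in the FSH and FBS libraries, and Mgst1 is the largest piece in each library.

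Gstp1, the pi-class transferase, was listed under its own ID in no library. A first exon on chromosome 19, minus strand, from 4037863 to 4037921 was filed under the ID of Gstp2, its close copy. That exon overlaps the RefSeq position of Gstp1 and not that of Gstp2 in GRCm38.p6, and its 5′ edge lies 9 bases from the RefSeq start of Gstp1. It was at 119, 115 and 261 FPKM in treated cells and at 53.8, 53.6 and 89.1 FPKM in untreated cells, so the groups did not overlap. A first exon within Gstp2 itself, from 4042165 to 4042236, was listed in 3 libraries, at 30.5 and 7.37 FPKM in treated libraries 1 and 2 and at 3.90 FPKM in untreated library 3. The last exon, from 4040285 to 4040539 within Gstp2, was at 11.0, 7.37 and 35.3 FPKM against 4.97, 2.61 and 3.90 FPKM. First-exon and last-exon FPKM of the Gstp2 ID thus differ severalfold, and how much of either belongs to Gstp1 cannot be told apart here.

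The RefSeq window before the Gstp1 start, chr19:4037913-4038162 (minus, GRCm38.p6), is shown because that exon begins 9 bases inside its downstream end. Capitals mark its 1 match to TGANTCAGC.
Gstp1: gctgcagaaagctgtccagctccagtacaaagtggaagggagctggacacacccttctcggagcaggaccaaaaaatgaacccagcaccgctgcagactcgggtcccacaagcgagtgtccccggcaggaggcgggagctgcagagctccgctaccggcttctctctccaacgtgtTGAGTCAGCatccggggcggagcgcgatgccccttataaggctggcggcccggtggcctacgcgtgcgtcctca

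**Figure D4:**
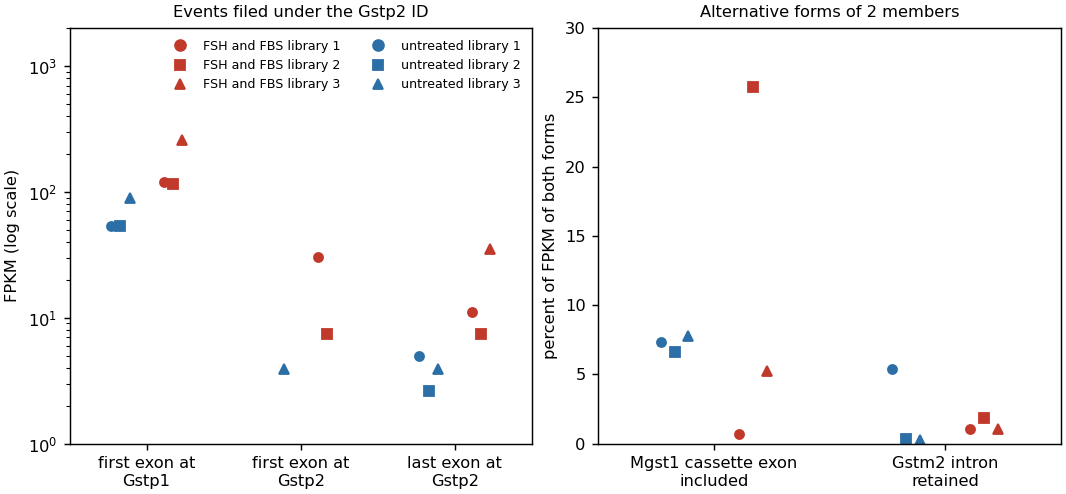
Left, FPKM (log scale) of the 2 first exons and the last exon filed under the Gstp2 ID, with unlisted values left out. Right, the percent of FPKM with a cassette exon of Mgst1 included and with an intron of Gstm2 retained, per library: FSH and FBS library 2 stands at 25.75% for Mgst1 and untreated library 1 at 5.415% for Gstm2.

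The rest of the transferase family was taken from a list of 23 genes, of which 19 were listed in some library and 13 were tested. None was called in either direction by limma. The groups did not overlap for 7 of the 13, against 38.9% of all genes, and the list's median log2 fold change was 0.366, against 0.242 for all genes. The smallest adjusted p in the list belonged to Gsta3, an alpha-class gene whose human counterpart isomerises steroid precursors. It was at 9.65, 8.30 and 11.6 FPKM against 1.95, 1.57 and 3.75 FPKM (log2 fold change 1.63, SE 0.41, limma adjusted p = 0.097). Mgst2, a leukotriene C4 synthase and relative of Mgst3, was at 32.1, 34.2 and 47.1 FPKM against 11.6, 10.01 and 18.6 FPKM (log2 fold change 1.41, limma adjusted p = 0.13). Gstp2, as filed, had a log2 fold change of 1.40 (limma adjusted p = 0.21), a value that rests mostly on the first exon overlapping Gstp1. Ptges, the inducible prostaglandin E synthase of the same membrane family, was at 16.4, 16.8 and 21.9 FPKM against 9.95, 9.63 and 9.71 FPKM (limma adjusted p = 0.26).

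Among the mu-class genes beside Gstm1 and Gstm2, named after their values were seen, Gstm5 was at 14.3, 17.4 and 21.6 FPKM in treated cells and at 32.4, 29.5 and 36.4 FPKM in untreated cells (log2 fold change -0.83, limma adjusted p = 0.30). Gstm1 over Gstm5 within a library was 4.60, 4.87 and 5.24 in untreated cells and 1.63, 1.27 and 1.34 in treated cells. Gstm7 had a log2 fold change of -0.51 and Gstm4 of 0.37. Gsta2, also named after its values were seen, was listed in the FSH and FBS libraries alone, at 1.48, 1.55 and 7.16 FPKM, and was not tested.

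**Figure D5:**
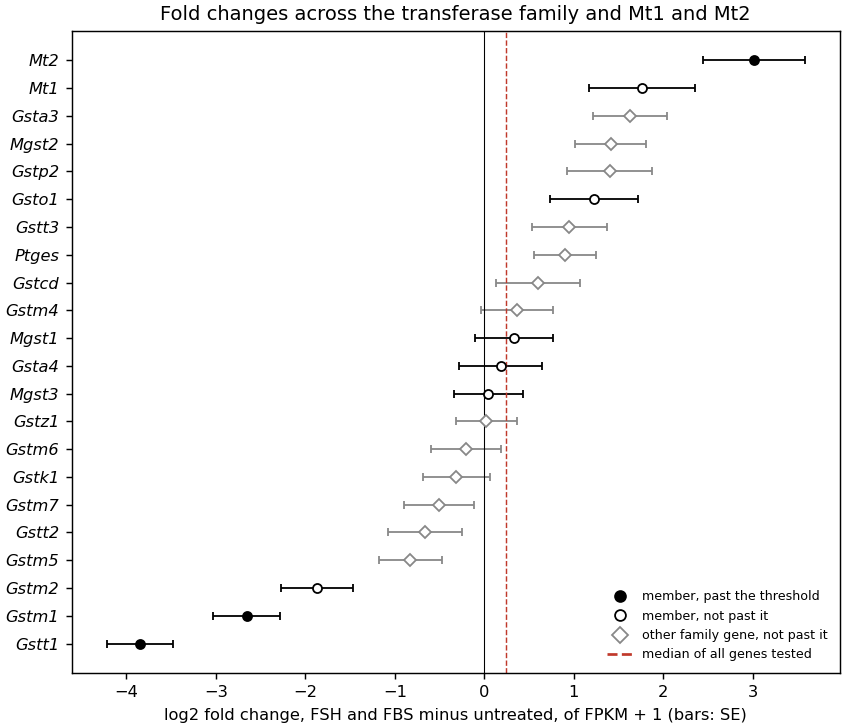
Log2 fold change (FSH and FBS minus untreated, on log2(FPKM + 1), bars are SE) of the 9 listed members in black and 13 other transferase family genes in grey, with filled points past the threshold. Mt2, Gstm1 and Gstt1 are past it, and the dashed line marks the median of all genes at 0.242. Gsta4, Mgst3 and, after quantile normalization, Mgst1 change sign when libraries are rescaled.

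Of 17 genes of glutathione synthesis, recycling and breakdown, 11 were tested, 1 was called higher and none lower, against 2.37% of all genes called in either direction. No overlap between groups was seen for 9 of the 11, against 38.9% of all genes, and the median log2 fold change was 1.12. The call was Chac1, which breaks glutathione down in the cytosol, at 42.6, 42.4 and 36.7 FPKM against 1.18, 1.13 and 1.18 FPKM (log2 fold change 4.22, SE 0.35, limma adjusted p = 0.0031). Its libraries stood far apart with little spread. Its relative Chac2 had a log2 fold change of 1.36 (limma adjusted p = 0.11). The 5-oxoprolinase gene Oplah stood at 1.21 and the dipeptidase gene Cndp2 at 1.12 (limma adjusted p = 0.18 and 0.20). Gclc, the catalytic subunit of the rate-limiting ligase, was named after its value was seen, at 18.4, 18.7 and 12.2 FPKM against 20.2, 20.1 and 11.4 FPKM. Gclm, Gss and Gsr, also named after their values were seen, had log2 fold changes of 0.58, 1.14 and 1.20, none past the threshold. Slc7a11, named likewise, was at 11.6, 11.7 and 10.8 FPKM against 1.05 and 1.16 FPKM. It was unlisted in untreated library 3 and so not tested.

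Of 20 other glutathione-using enzymes and conjugate exporters, 17 were tested and 1 was called, Hagh, a glyoxalase that frees glutathione from its lactate conjugate, against 2.37% of all genes called. The groups did not overlap for 5 of the 17, against 38.9% of all genes, and the median log2 fold change was 0.10. Hagh was at 29.1, 29.5 and 35.5 FPKM against 8.98, 7.76 and 9.64 FPKM (log2 fold change 1.74, SE 0.34, limma adjusted p = 0.044). That call was lost in 8 of the 19 alternative fits, all 3 rescalings among them. Glrx5, Gpx4 and Adh5 did not pass (limma adjusted p = 0.38, 0.39 and 0.46).

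Of 34 genes of zinc and copper handling, 20 were tested and none was called. The groups did not overlap for 10 of the 20, against 38.9% of all genes, and the median log2 fold change was 0.37. Mtf1, the zinc-sensing regulator of metallothionein genes, was named after its value was seen, at 3.28, 3.52 and 2.75 FPKM against 2.67, 2.504 and 2.33 FPKM (log2 fold change 0.23, limma adjusted p = 0.80). The zinc transporter gene Slc30a5 was at 27.0, 27.0 and 26.7 FPKM against 13.0, 13.7 and 13.0 FPKM (limma adjusted p = 0.21), with no overlap. Slc39a11 and Slc39a14, zinc importers, and Atox1, a copper chaperone, had limma adjusted p of 0.17, 0.30 and 0.35. Mt3, the brain metallothionein, was also named after its value was seen and stood at 2.70, 2.65 and 4.70 FPKM against 2.35, 2.72 and 8.87 FPKM.

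Of 20 genes of NRF2 and its other targets, 15 were tested, 1 was called higher and 1 lower, against 1.68% and 0.687% of all genes. No overlap between groups was seen for 10 of the 15, against 38.9% of all genes, and the median log2 fold change was 0.704. Srxn1, which repairs overoxidised peroxiredoxins, was at 13.7, 12.8 and 18.9 FPKM against 2.80, 2.45 and 3.20 FPKM (log2 fold change 2.11, SE 0.37, limma adjusted p = 0.029), a call lost under all 3 rescalings, with first-exon sums alone and without untreated library 3. Ephx1, the microsomal epoxide hydrolase, averaged 2.17 ± 0.37 FPKM in treated and 16.9 ± 1.69 FPKM in untreated cells (SD, n = 2). Its limma adjusted p was 0.014 at a log2 fold change of -2.496, a call lost with first-exon sums alone and without untreated library 3. Taldo1 and Prdx1 did not pass (limma adjusted p = 0.076 and 0.14).

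Of 12 genes of the glucocorticoid receptor and its targets, 7 were tested and none was called. No overlap between groups was seen for 5 of the 7, against 38.9% of all genes, and the median log2 fold change was 0.841. The kinase gene Sgk1 was at 601, 599 and 352 FPKM against 91.3, 95.8 and 106 FPKM and the phosphatase gene Dusp1 at 14.2, 13.4 and 14.5 FPKM against 4.71, 3.61 and 2.44 FPKM (limma adjusted p = 0.051 and 0.052), with no overlap. Fkbp5 was at 60.2, 60.2 and 62.2 FPKM against 32.3, 43.8 and 3.36 FPKM, so that untreated library 3 stood apart. Tsc22d3 had a log2 fold change of 0.68 (limma adjusted p = 0.38). Over all 6 lists, 4 of 83 tested genes were called, against 2.37% of all genes. With the replicate number as a block 25 were called, against 11.5% of all genes higher and 4.51% lower.

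Across the 6 libraries, the genes whose log2(FPKM + 1) followed Gstt1 most closely were Ephx1, Ackr3, a scavenging chemokine receptor, and Psrc1, a spindle protein gene, each with Pearson r over 0.99, as had 30 genes in all. Ephx1 was at 2.68, 2.18 and 1.91 FPKM against 18.6, 17.5 and 15.7 FPKM, and Ackr3 at 2.83, 2.39 and 1.86 FPKM against 21.1, 22.5 and 17.8 FPKM. For Mt2 they were Bbc3, which encodes the pro-apoptotic protein PUMA, the folate transporter gene Slc46a1 and the histone gene Hist1h2bc, with 44 genes at r over 0.99. Bbc3 was at 17.4, 18.97 and 22.2 FPKM against 9.22, 8.96 and 12.7 FPKM. The 6 points share the group difference and the closeness of libraries 1 and 2, so these r values describe the libraries only.

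Of 10 cumulus and granulosa markers, 7 to 9 were listed per library, summing to 2077 to 2843 FPKM in treated cells and 1892 to 2429 FPKM in untreated cells, and Foxl2 was listed in none. Most of the treated sum was Hsd3b1, at 1904, 1907 and 1476 FPKM against 487, 680 and 1174 FPKM. Gja1, Inha and Fshr had log2 fold changes of -1.34, -0.60 and -1.20, and Nr5a2 and Amh of 1.11 and 1.62, none of them past the threshold and each without overlap between groups. Markers of other cells differed between libraries. For 10 oocyte markers the sum was 0.260, 0.157 and 12.2 FPKM in treated cells and 10.3, 11.8 and 14.8 FPKM in untreated cells, with Zp1, Zp2 and Bmp15 listed in no library. In treated library 3, Gdf9 held 8.77 of the 12.2 FPKM. The part of oocyte RNA in the members' values was not tested. The 7 theca and stroma markers, 2 to 4 of them listed per library, summed to 22.9 to 30.9 FPKM against 61.3 to 76.9 FPKM. Most of that sum was Acta2, at 13.6 to 17.5 FPKM against 58.3 to 67.7 FPKM and called lower (limma adjusted p = 0.030). Dcn was unlisted in all treated libraries and at 7.86, 7.01 and 2.99 FPKM in the untreated ones. Star went the other way, at 9.44, 8.36 and 13.4 FPKM against 2.35 and 1.56 FPKM, and was unlisted in untreated library 3. The 8 leukocyte markers, 3 to 6 listed, summed to 2.96 to 7.19 FPKM against 8.97 to 12.6 FPKM. Lum, Pdgfra, Csf1r and Cd52 were listed in no library, and the part of these cells in the members' values was not tested either. Of the liver markers Alb, Ttr and Apoa1, looked at because liver is rich in transferases, Apoa1 alone was listed. Apoa1 was at 2.92 to 4.74 FPKM in treated and 33.9 to 35.8 FPKM in untreated cells and was called lower (limma adjusted p = 0.0085). The 5 endothelial markers summed to 2.58 to 3.38 FPKM against 0 to 0.439 FPKM, with Kdr, Tek and Emcn listed in no library, and the 5 erythroid markers to at most 1.93 FPKM in any library. The tables hold FPKM without counts, so sequencing depth is unknown and no counting interval is given. They listed 63940 to 85853 transcript events per library.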

How the data were processed

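Tables from 6 RNA-seq libraries entered the comparison, and the 6 small-RNA libraries were not analysed here. The authors deposited FPKM values per transcript event (first exon, last exon, cassette exon, retained intron and others), per the file headers, with no event at 0. HISAT2 2.0.1 was the aligner according to the submitters' processing notes. Assembler, filters and build are not given in the sources used here. Each gene took the larger of 2 sums, over its first exons and over its last exons, on its main strand, and an unlisted gene stayed missing. Symbols were found for 13281 of 13318 gene IDs.

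The 9022 genes listed in all 6 libraries at a mean of 1 FPKM or more were fitted on log2(FPKM + 1), a scale that understates the change of low genes. The tool was limma 3.58.1 (R 4.3.3) with its trend option, a two-sided test, Benjamini-Hochberg adjustment over all genes and a threshold of 0.05. The mean of libraries 1 and 2 of a group was 1 sample. The fit was tested on simulated data whose samples varied independently, so that test does not cover libraries that deviate together. Same-numbered libraries deviated together (r = 0.319, 0.310 and 0.508 over genes for numbers 1, 2 and 3), so fits with the replicate number as a block are given beside the main results, whose fit has no block. This pairing comes from the data and not from the labels, and numbers 1 and 2 correlated as well across each other (0.311 and 0.332).

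The members, the 6 gene lists and the tests were chosen with earlier results of these data known. Genes named were the 10 members, up to 4 tested genes of each list with the smallest adjusted p and any called gene, and the 3 genes most alike to Gstt1 and to Mt2. Others are marked as named after their values were seen. Motifs were searched in RefSeq promoters (GRCm38.p6). The 19 alternative fits varied averaging, block, pseudocount, filter, scaling, exon sums and the libraries kept.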

Additional observations from a re-analysis of the deposited data

How the results depend on the processing

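The 152 genes called higher and 62 lower, 1 member higher (Mt2) and 2 lower (Gstt1, Gstm1), and 4 genes of the 6 lists moved with how libraries were combined and scaled. With all 6 libraries as separate replicates, 973 genes were higher and 350 lower, 2 members were higher, and 20 list genes were called. With the replicate number as a block on averaged samples, 1040 genes were higher and 407 lower, 3 members were higher, and 25 list genes were called. The replicate block on all 6 libraries gave 1516 and 584 genes, 3 members higher and 29 list genes. No member was called higher with unlisted genes as 0, where 120 genes were higher (0 members), or under the rescalings. Median of ratios gave 49 genes higher and 41 lower, 0 members higher and 2 list genes, with Gsta4 at -0.082 and Mgst3 at -0.22 on the log2 scale. Equal sums gave 59 genes higher, 0 members higher and 2 list genes, with Gsta4 at -0.116 and Mgst3 at -0.253. Quantile normalization gave 0 members higher and 2 list genes, with Gsta4 at -0.204, Mgst1 at -0.053 and Mgst3 at -0.318. First-exon sums alone gave 42 genes higher, 21 lower, 0 members higher and 1 list gene.

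Leaving out each library in turn gave 42 to 253 genes higher, 33 to 131 lower, 0 to 1 members higher, 1 to 3 lower and 1 to 5 list genes. The lowest of these came without untreated library 3 and the highest gene counts without FSH and FBS library 3, where Gsta4 stood at -0.355 and Mgst3 at -0.283. Over the single libraries left out, Gsta4 ranged from -0.355 to 0.539 and Mgst3 from -0.283 to 0.263. Over the 19 alternatives the log2 fold change was -4.615 to -2.502 for Gstt1, -3.036 to -2.468 for Gstm1 and 2.489 to 3.695 for Mt2. Mt2 lost its call in 6 of them and Gstm1 in 1. The alternatives reuse the same 6 libraries and members chosen with their values known, so nothing is read from the calls that stayed. Without library 3 of a group, that group kept 1 sample, which is assumed to vary like the other group. Sequencing depth is unknown, so what depth limits could not be given.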

Other observations

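Alternative forms of the members were rare apart from an Mgst1 exon and a Gstm2 intron. A 108-base cassette exon of Mgst1, on chromosome 6 from 138153496 to 138153603, was included in 7.30%, 6.58% and 7.75% of the FPKM of both forms in untreated libraries 1, 2 and 3. In the libraries given FSH and FBS it was included in 0.679%, 25.75% and 5.27%. Libraries 1 and 2 of that group, the closest pair over all genes, lay at the opposite ends, while the gene's own level was 231 and 253 FPKM. A 351-base intron of Gstm2 was retained in 5.415% of the FPKM of both forms in untreated library 1. It was retained in 0.328% and 0.252% in the other untreated libraries and in 1.08%, 1.835% and 1.05% with FSH and FBS.

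First exons other than the main exon held at most 1.06% of the first-exon FPKM of Gstt1, Gsto1, Mgst1 and Gstm2 in any library. Gstt1 had a minor first exon in each untreated library, at 0.368%, 0.413% and 0.322%, and none was listed with FSH and FBS, where the whole gene was at 0.856 to 1.79 FPKM. With 2 samples a group, no exact permutation test over samples can pass, so these shares are given without a test.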
